A study of Homo sapiens with 6 samples.

Results

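The set described here is BMP4, the 4 ID genes, the inhibitory genes SMAD6, SMAD7 and BAMBI, and the receptor genes BMPR1A and BMPR2, 10 genes of the 61228 in the count table. The genes were selected by name with earlier results of these same libraries known, so the difference between KO and control cells is part of how they were chosen from the table. Their values in that comparison are therefore given as a description, with no p-value. All 10 had reads, and 9 passed the filter on low counts; ID2 did not.

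The libraries are poly(A) RNA-seq of MDA-MB-231, an established triple-negative breast cancer cell line with mesenchymal features, cultured in droplets of collagen I. KO cells (n = 3 libraries) were nucleofected with Cas9 and sgRNAs against ETV1, ETV4 and ETV5, the PEA3 group of ETS transcription factors, which act downstream of receptor tyrosine kinases and ERK. Control cells (n = 3) were nucleofected with Cas9 and control sgRNAs, so both groups carry the nuclease, the nucleofection and the collagen culture. The sample titles of the KO libraries name ETV4 alone, their library names share an unexplained tag (c39), and the labels do not say whether they come from 1 clone or from separate cultures. The p-values below then measure only the spread between these libraries, which may be technical, and a property of 1 clone and the loss of the ETV genes cannot be told apart.

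Bone morphogenetic proteins are secreted ligands of the TGF-beta superfamily. They bring together type I receptors such as BMPR1A and type II receptors such as BMPR2, which phosphorylate SMAD1, SMAD5 and SMAD9; with SMAD4 these enter the nucleus and switch on the ID genes together with their own brakes, SMAD6, SMAD7 and BAMBI. ID proteins have a helix-loop-helix but no DNA-binding region, and they hold E proteins and other basic helix-loop-helix factors away from DNA; in breast cancer cells ID1 and ID3 are best known for links to self-renewal and metastatic growth.

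Counts per library summed to between 18042601 and 19250921 in KO and between 18806653 and 23232770 in control cells. Replicate 3 stood apart from replicates 1 and 2 in both groups. Within a group, the chi-square per degree of freedom between replicates 1 and 2 was 6.23 in KO and 4.21 in control, against at least 19.5 in KO and 21.0 in control for any pair with replicate 3. ETV1 measured 135, 137 and 155 CPM (read counts as a share of each library, sized with TMM factors) in KO, against 218, 213 and 238 CPM in control libraries. ETV4 measured 65.5, 61.5 and 64.0 CPM in KO, against 95.3, 94.9 and 91.4 CPM in control, and ETV5 114, 113 and 112 CPM in KO, against 117, 108 and 112 CPM in control. ETV1 and ETV4 were lower in KO and ETV5 was not; the guide positions were not used here, so a transcript level does not check an edit. Of the markers of the line, VIM, CD44, MSN and CAV1 had at least 369 CPM in every library and ESR1 and PGR at most 1 count, while the luminal marker ERBB3 (5.51 ± 0.802 CPM in KO and 8.21 ± 0.394 CPM in control) and the endothelial marker PECAM1 (3.74 ± 0.947 CPM in KO and 6.76 ± 0.631 CPM in control) were not near 0, and both were lower in KO (adjusted p of 0.0327 and 0.025 with edgeR). CDH1, PTPRC, PDGFRA and COL1A2, markers of epithelial, blood and stromal cells, had at most 0.539 CPM. Their part in the results was not tested.

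The sequences just upstream of the transcription start are shown for the ligand gene, for the pair of ID genes with the largest increases and for SMAD6, whose libraries overlapped between the groups. Each is the 250 bases before the RefSeq start (GRCh38.p14), read 5′ to 3′ on the gene's strand. BMP4 is at chr14:53955051-53955300 (minus strand), ID1 at chr20:31605039-31605288 (plus), ID3 at chr1:23559502-23559751 (minus) and SMAD6 at chr15:66701986-66702235 (plus). Capitals mark 3 motifs searched on both strands: the ETS core CCGGAA, the GC-rich SMAD1/5 element GGCGCC and the palindromic SMAD4 box GTCTAGAC.
BMP4: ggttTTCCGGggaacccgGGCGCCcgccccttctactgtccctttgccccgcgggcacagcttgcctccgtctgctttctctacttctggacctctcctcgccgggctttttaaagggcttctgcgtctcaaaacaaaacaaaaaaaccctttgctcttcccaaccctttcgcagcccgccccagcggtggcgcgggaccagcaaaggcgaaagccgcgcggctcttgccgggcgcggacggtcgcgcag
ID1: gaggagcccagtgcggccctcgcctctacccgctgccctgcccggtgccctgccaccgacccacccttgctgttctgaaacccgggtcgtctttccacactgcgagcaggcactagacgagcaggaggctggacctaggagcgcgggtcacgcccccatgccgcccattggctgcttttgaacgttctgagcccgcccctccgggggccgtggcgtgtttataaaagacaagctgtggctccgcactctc
ID3: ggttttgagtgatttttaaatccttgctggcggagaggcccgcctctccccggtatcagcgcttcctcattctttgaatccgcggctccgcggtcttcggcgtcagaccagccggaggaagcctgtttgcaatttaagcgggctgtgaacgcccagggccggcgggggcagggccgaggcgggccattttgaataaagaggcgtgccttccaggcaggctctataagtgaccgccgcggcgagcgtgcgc
SMAD6: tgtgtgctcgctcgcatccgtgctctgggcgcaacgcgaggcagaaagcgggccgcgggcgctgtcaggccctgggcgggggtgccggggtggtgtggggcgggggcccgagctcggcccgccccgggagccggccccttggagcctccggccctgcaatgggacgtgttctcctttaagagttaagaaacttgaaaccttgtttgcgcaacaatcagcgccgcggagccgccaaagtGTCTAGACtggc

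The BMP4 window held 1 ETS core, read on the opposite strand 246 to 241 bases before the start, and 1 GGCGCC at 232 to 227 bases. SMAD6 held the SMAD4 box 12 to 5 bases before its start. The ID1 and ID3 windows held none of the motifs. Of 35116 RefSeq windows of this length, 14.5% held the ETS core, 16.4% GGCGCC and 0.182% the SMAD4 box. All 10 genes matched a window by symbol: 1 held the ETS core, 3 held GGCGCC (BMP4, BAMBI with 3 copies, and BMPR2) and 1 held the SMAD4 box. These are matches of letters in one window per gene; distant elements were not searched, and BMP4 has further starts upstream in GENCODE.

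BMP4 and 3 of the ID genes were higher in KO cells, SMAD7 was higher to a smaller degree, and SMAD6, BAMBI and both receptors overlapped between the groups. Of the 9 tested genes, 5 were past the threshold of edgeR's quasi-likelihood test (adjusted p under 0.05 over all genes), all 5 higher in KO. Over all 14704 genes tested, 9.70% were past it, 3.28% higher and 6.42% lower. The same 5 genes had no overlap between the libraries of the groups, which held for 31.7% of all tested genes. Because this comparison was known when the genes were chosen, nothing is read from these shares. The median log2 fold change was 0.47 over the 9 genes and 0.00 over all tested genes.

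**Figure D1:**
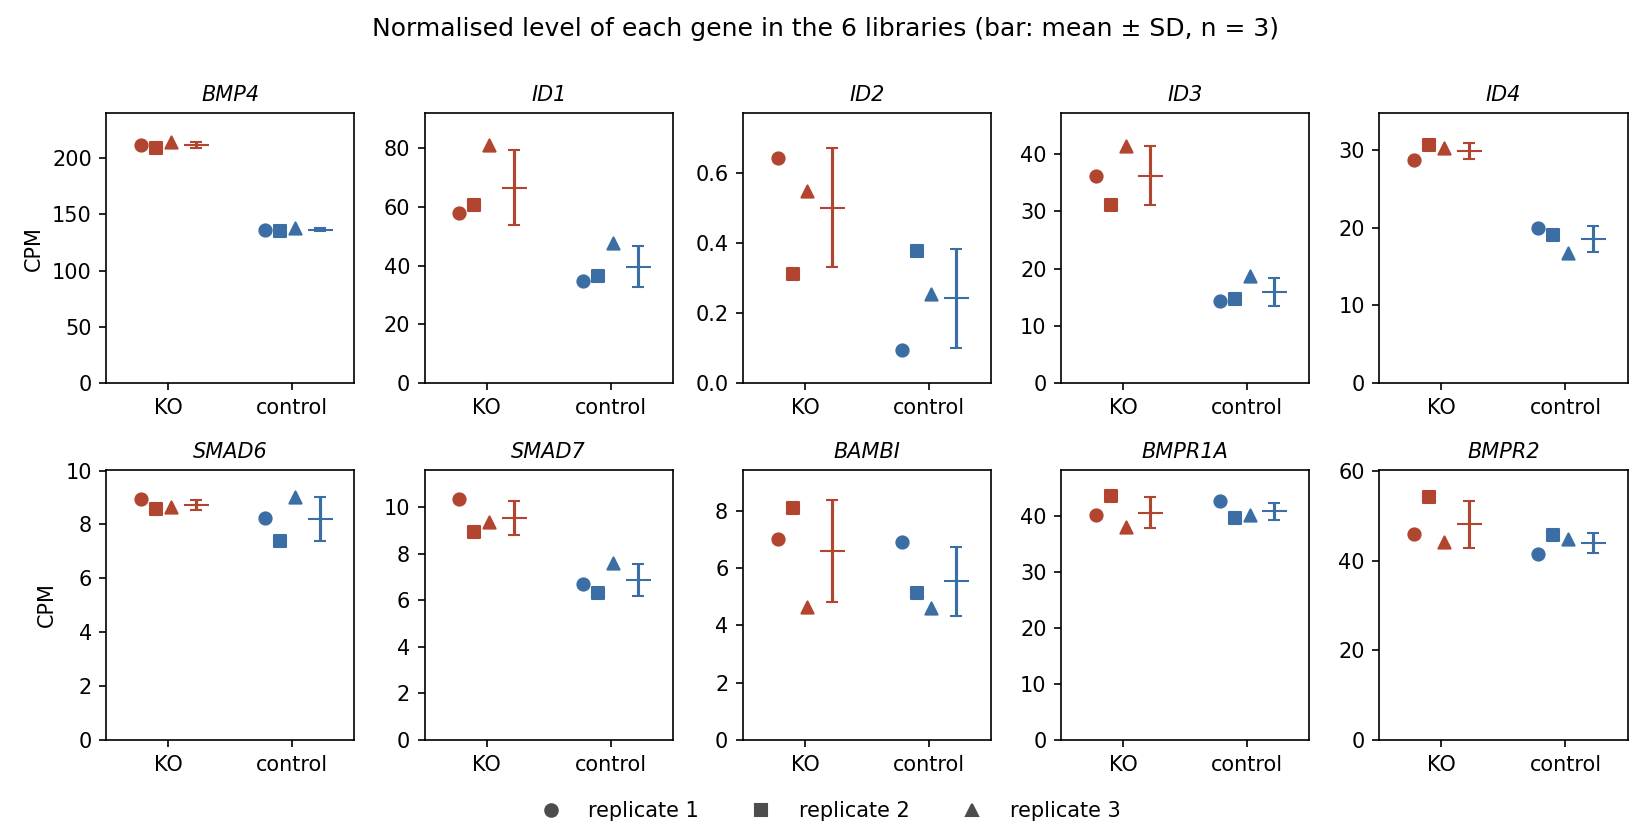
CPM (TMM-scaled) of each of the 10 genes in every library, KO left and control right; marker shapes give the replicate number and bars the mean ± SD (n = 3). BMP4, ID1, ID3, ID4 and SMAD7 do not overlap between groups, and replicate 3 is the highest library of its group for ID1 and ID3.

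The ligand BMP4 (ENSG00000125378, GRCh38 chromosome 14, 53949736 to 53958761, minus strand) was the most abundant gene of the set. It measured 211, 209 and 214 CPM in KO replicates 1, 2 and 3, against 136, 135 and 138 CPM in control replicates 1, 2 and 3. The groups were far apart and each was tight: the means were 211 ± 2.69 CPM in KO and 136 ± 1.36 CPM in control (SD, n = 3 each). The log2 fold change was 0.63 (SE 0.05), or 1.55-fold higher in KO. Between libraries of the same number the ratio of KO to control was 1.55, 1.55 and 1.55. The labels do not say that the numbers pair the samples, so such ratios, here and below, hold for this matching only. In bulk RNA, more RNA per cell and more cells that express a gene cannot be told apart.

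ID3 (ENSG00000117318, chromosome 1, 23557918 to 23559794, minus strand) had the largest difference of the set. It measured 36.2, 31.1 and 41.4 CPM in KO, against 14.4, 14.7 and 18.7 CPM in control libraries. The lowest KO library was well above the highest control library. The means were 36.2 ± 5.17 CPM in KO and 15.9 ± 2.44 CPM in control. The log2 fold change was 1.18 (SE 0.14), or 2.27-fold higher in KO, and 41 of the 14704 tested genes had a larger increase. As the gene was chosen with this comparison known, the rank is a description only.

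ID1 (ENSG00000125968, chromosome 20, 31605283 to 31606515, plus strand), the family member with the most reads here, measured 57.8, 60.7 and 81.1 CPM in KO, against 34.8, 36.3 and 47.6 CPM in control libraries. Replicate 3 was the highest library of both groups, which widened the spread to 66.5 ± 12.7 CPM in KO and 39.6 ± 6.98 CPM in control. The log2 fold change was 0.75 (SE 0.16), while the ratios within replicate numbers lay between 1.66 and 1.70. The call was lost on dropping control replicate 1 (log2 fold change 0.66), control replicate 2 (0.69) or KO replicate 2 (0.81). Without both replicate 3 libraries, a setting added after the data were seen, the log2 fold change of ID1 was 0.74 (SE 0.07) and it passed. In that setting 25.5% of all tested genes passed, beside 9.70% in the main test.

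ID4 (ENSG00000172201, chromosome 6, 19837386 to 19840684, plus strand), which in some settings opposes the other ID proteins, measured 28.7, 30.6 and 30.2 CPM in KO, against 19.9, 19.1 and 16.7 CPM in control libraries. Unlike ID1 and ID3, its control replicate 3 was the lowest library. The log2 fold change was 0.68 (SE 0.09), or 1.61-fold higher in KO, and the ratio within replicate numbers ran from 1.44 to 1.80.

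ID2 (ENSG00000115738, chromosome 2, 8678845 to 8684453, plus strand) was barely detected, with 12, 6 and 10 counts in KO, against 2, 7 and 6 counts in control libraries. The groups overlapped, and it was not tested. Summed counts were 28 in KO and 15 in control, a ratio per scaled read of 2.10 with an exact 95% interval of 1.09 to 4.24. That interval covers counting error only. It pools the libraries of each group, leaves out the spread between them and is no test of a difference. It was the only gene of the set with an annotated overlap on its exons, 38 bases shared with the antisense gene ID2-AS1, and the strand setting used for counting is not given.

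Summed over the family, ID transcripts made up 123, 123 and 153 CPM in KO, against 69.2, 70.4 and 83.3 CPM in control libraries. ID1 supplied 49.7 ± 3.03% of the sum in KO and 53.0 ± 3.63% in control, with overlapping libraries. ID3 supplied 27.2 ± 2.02% in KO and 21.4 ± 0.973% in control, and its share was higher in every KO library (25.3% to 29.4%) than in any control library (20.8% to 22.5%).

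**Figure D2:**
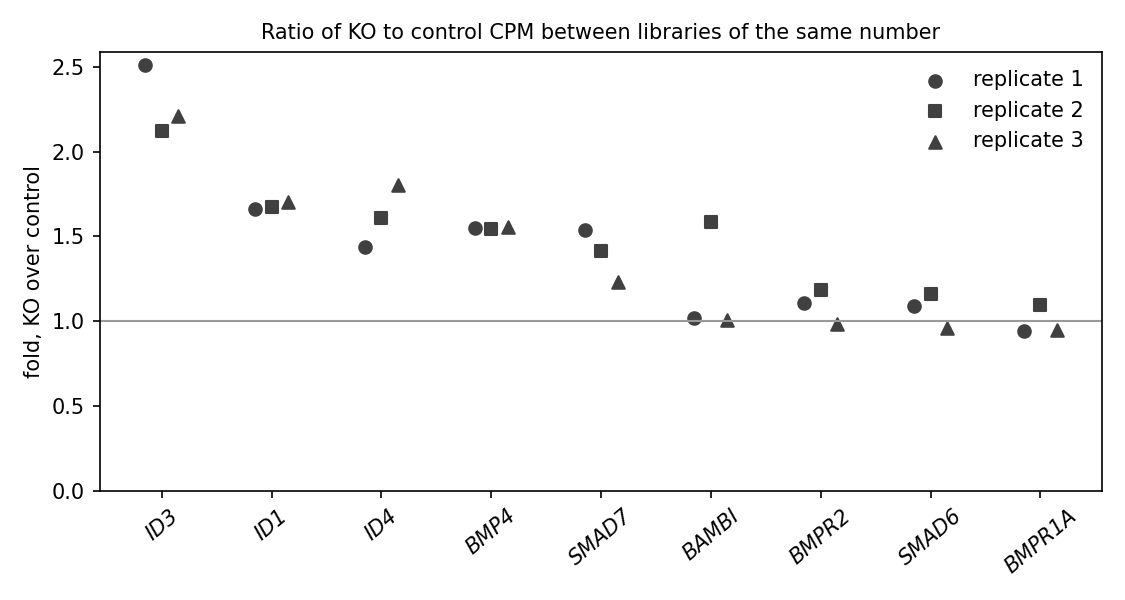
Ratio of KO to control CPM (y axis, linear, starting at 0) between libraries with the same replicate number for the 9 tested genes. With this matching by number, BMP4 (1.55 in each) and ID1 (1.66 to 1.70) vary least. BAMBI runs from 1.01 to 1.58, and BMPR1A, BMPR2 and SMAD6 lie on both sides of 1. The labels do not say that the numbers pair the samples, so another matching would give other ratios and spreads.

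Of the brakes, SMAD7 differed and SMAD6 and BAMBI did not pass. SMAD7 (ENSG00000101665, chromosome 18, 48919853 to 48952052, minus strand), an inhibitory SMAD that blocks both the BMP and the TGF-beta branch, measured 10.3, 8.93 and 9.36 CPM in KO, against 6.71, 6.30 and 7.61 CPM in control libraries. The groups did not overlap. Its log2 fold change was 0.47 (SE 0.12), and control replicate 3 was its only single library whose loss left the call in place; the value was 0.45 or 0.41 on dropping control replicate 1 or 2, and 0.42, 0.52 or 0.50 on dropping KO replicate 1, 2 or 3.

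SMAD6 (ENSG00000137834, chromosome 15, 66702228 to 66782848, plus strand), the inhibitory SMAD that acts mainly on the BMP branch, measured 8.94, 8.57 and 8.64 CPM in KO, against 8.22, 7.38 and 9.01 CPM in control libraries. The groups overlapped, with a log2 fold change of 0.08 (SE 0.12). There were 1.09 ± 0.0574 SMAD7 reads per SMAD6 read in KO and 0.838 ± 0.0197 in control. BAMBI (ENSG00000095739, chromosome 10, 28677342 to 28682939, plus strand), a pseudoreceptor without a kinase domain, measured 7.02, 8.10 and 4.62 CPM in KO, against 6.90, 5.12 and 4.59 CPM in control libraries. It was the most variable tested gene of the set, with overlapping groups, a log2 fold change of 0.25 and an SE of 0.23.

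The receptors did not separate the groups. BMPR1A (ENSG00000107779, chromosome 10, 86756601 to 86932838, plus strand), a type I receptor kinase, measured 40.2, 43.5 and 38.1 CPM in KO, against 42.6, 39.7 and 40.1 CPM in control libraries, with a log2 fold change of -0.01 (SE 0.07) whose sign turned with the scaling (0.0002 with median-of-ratios factors). BMPR2 (ENSG00000204217, chromosome 2, 202376936 to 202567751, plus strand), a type II receptor kinase, measured 46.0, 54.1 and 44.3 CPM in KO, against 41.5, 45.7 and 44.9 CPM in control libraries, with a log2 fold change of 0.13 (SE 0.09). In both, the groups overlapped. BMPR1A has processed pseudogene copies, so the division of its reads is uncertain.

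**Figure D3:**
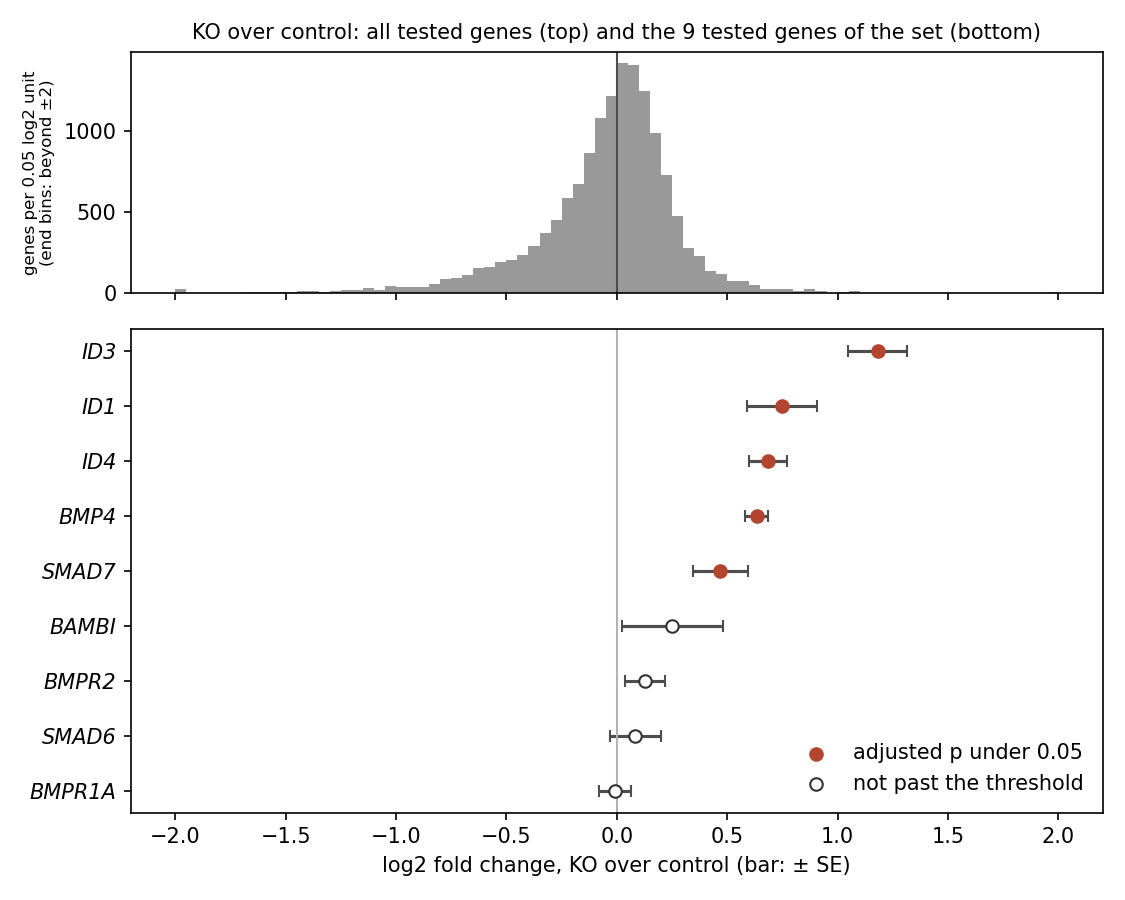
Log2 fold changes of KO over control. The upper panel counts all 14704 tested genes in bins, with values beyond the axis in the end bins; the lower panel gives each of the 9 tested genes with its SE, filled where past the adjusted p threshold. The values run from -0.01 (BMPR1A) to 1.18 (ID3).

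Levels were compared between genes as CPM per kb of merged exons in GENCODE release 29. In KO cells the order was BMP4 (68.5 CPM per kb), ID1 (54.0), ID3 (20.2), ID4 (12.7), BMPR2 (4.04), BMPR1A (3.56), BAMBI (2.84), SMAD7 (1.90), SMAD6 (1.02) and ID2 (0.227). The same order held in control cells, where BMP4 had 44.2, ID1 32.1, ID3 8.87, ID4 7.93, BMPR2 3.70, BMPR1A 3.57, BAMBI 2.39, SMAD7 1.37, SMAD6 0.958 and ID2 0.11 CPM per kb. The libraries of BMPR2 and BMPR1A overlapped in both groups. Those of BMPR1A with BAMBI and of BAMBI with SMAD7 overlapped in KO cells, and those of ID3 with ID4 in control cells; the remaining neighbours in the order were separate.

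**Figure D4:**
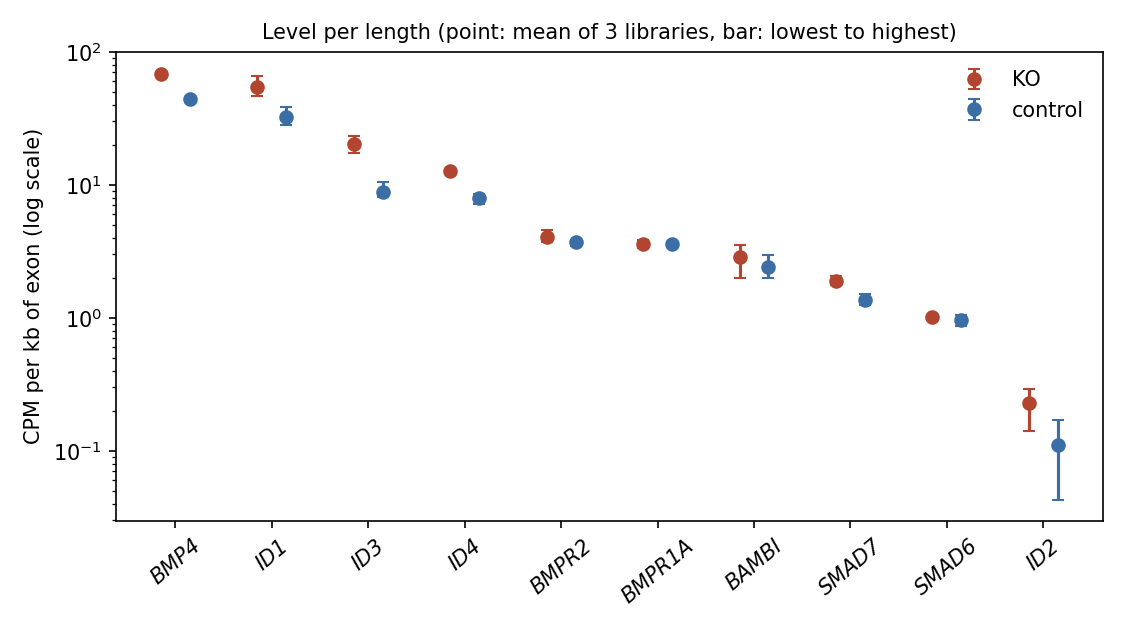
Level per length (CPM per kb of merged exons, log axis) of the 10 genes, KO left of control, with points for the mean of 3 libraries and bars from the lowest to the highest. The ligand BMP4 and ID1 lead in both groups, the receptors BMPR2 and BMPR1A lie near 4 CPM per kb or under, and ID2 is lowest.

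Profiles over the 6 libraries were compared as log2 CPM centred on each gene's own mean, by the root-mean-square distance, among 10799 other tested genes with at least 5 CPM. The gene closest to BMP4 was RUNX2 (distance 0.03), a runt-domain transcription factor of bone formation, followed by PLK2 (0.04) and RRM2 (0.05). The genes closest to ID1 were H2AC6 (0.07), SORCS3 (0.10) and ELFN2 (0.11), and those closest to ID3 were AKR1C1 (0.11), IL24 (0.15) and SHISA2 (0.15). The profile of SMAD6 lay closest to ZBTB9 (0.03), LINC02987 (0.03) and PLPP5 (0.03). Within the set, BMP4 lay closest to ID4 (0.09). These distances are descriptions of 6 libraries. For BMP4, ID1 and ID3 they largely follow the difference between the groups, and ID1 and ID3 were also highest in replicate 3 of both groups. SMAD6 had little difference between the groups (log2 fold change 0.08), as had its nearest genes. Histone and AKR1C genes have near-identical copies.

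In the rest of the pathway, 57 of 100 listed genes had enough reads to be tested; 8 passed edgeR's test, 4 higher and 4 lower in KO, and 49 did not (14.0% passed, beside 9.70% of all tested genes). The lists too were chosen with earlier results of these libraries known, so nothing is read from these shares, and the adjusted p-values of their genes are no independent evidence. The median log2 fold change of the 57 was -0.02. Dropping 1 library changed the count to 4 (KO replicate 1, KO replicate 2 or control replicate 1), 5 (control replicate 2), 7 (control replicate 3) or 10 (KO replicate 3, 6 higher and 4 lower). With the replicate number as a block, 18 passed, 8 higher and 10 lower, where 33.9% of all tested genes passed.

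**Figure D5:**
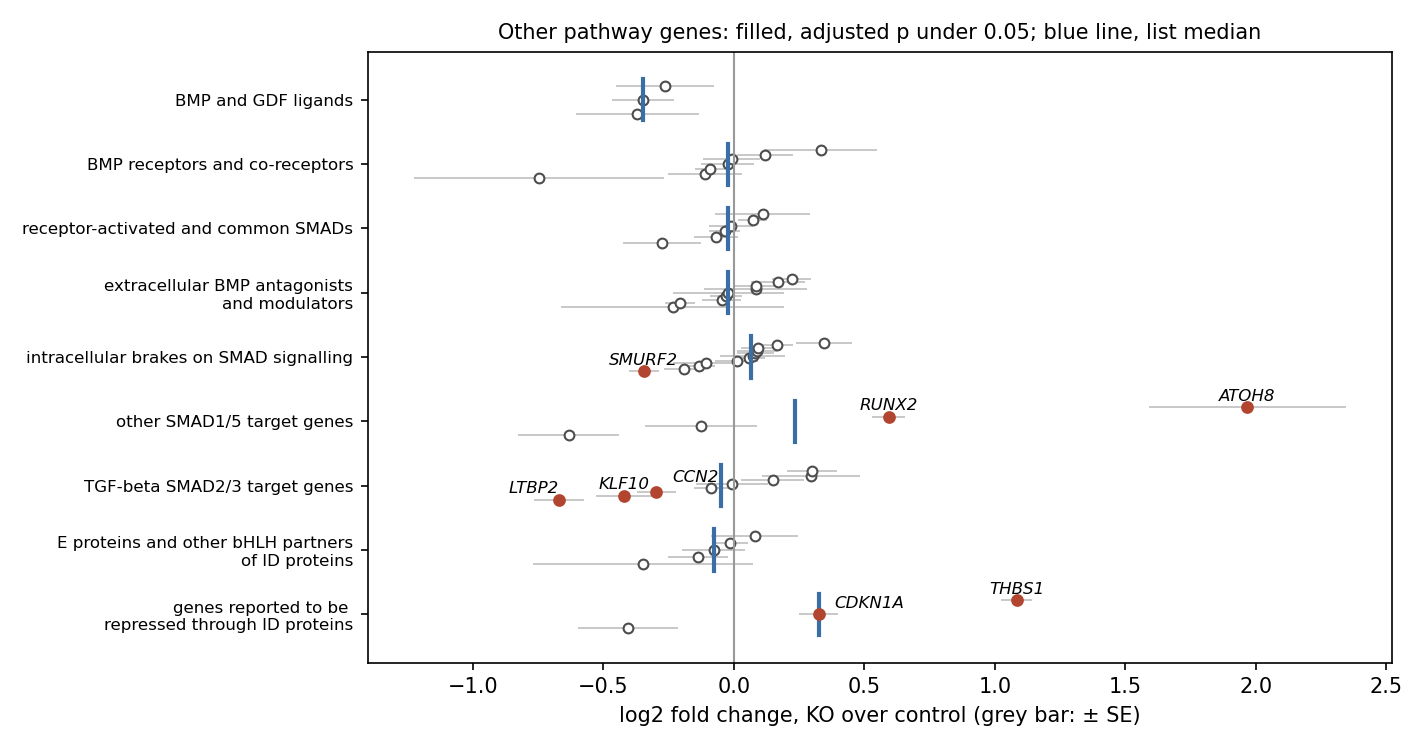
Log2 fold changes of KO over control (x axis, with SE) for the tested genes of 9 lists outside the set. Filled points passed the adjusted p threshold and are named; blue lines are list medians. ATOH8, RUNX2, THBS1 and CDKN1A lie to the right, and SMURF2, LTBP2, KLF10 and CCN2 to the left.

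Among other ligands, 0 of 3 tested genes passed edgeR's test or DESeq2's, 1 of them at an unadjusted p under 0.05, and the 10 untested ones had at most 13 counts in any library. BMP2, the close relative of BMP4, had 8.41 ± 0.409 CPM in KO and 10.7 ± 1.22 CPM in control, a log2 fold change of -0.35 (SE 0.12). Its edgeR adjusted p was 0.107, 0.0136 with the replicate block and 0.0171 without both replicate 3 libraries. BMP8B had a log2 fold change of -0.26 (SE 0.19). Of 7 tested receptors and co-receptors and 6 SMADs that carry the signal, 0 passed with edgeR or DESeq2, and none had an unadjusted p under 0.05. RGMB, a co-receptor, had 121 ± 4.63 CPM in KO and 129 ± 3.03 CPM in control, and the receptor ACVR2B 22.9 ± 1.97 CPM in KO and 23.0 ± 2.89 CPM in control. SMAD5, a signal carrier of the BMP branch, had 94.0 ± 0.670 CPM in KO and 89.4 ± 2.95 CPM in control (log2 fold change 0.07, SE 0.05). SMAD3, of the TGF-beta branch, had a log2 fold change of -0.04 (SE 0.06).

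Of 9 tested extracellular antagonists and modulators, 0 passed edgeR's test or DESeq2's, 2 of them with an unadjusted p under 0.05. CRIM1 (log2 fold change -0.05, SE 0.08) and TWSG1 (-0.03, SE 0.06), both of which bind BMPs, were the most abundant. The 2 genes under that p, picked out after their values were seen, went in opposite directions. NOG, which encodes the BMP antagonist noggin, measured 67.1, 65.2 and 72.3 CPM in KO, against 60.8, 53.4 and 61.2 CPM in control libraries. The groups did not overlap, and the log2 fold change was 0.22 (SE 0.08, edgeR adjusted p = 0.107; 3.83e-04 with the replicate block). FSTL1, a secreted follistatin-like glycoprotein, measured 112, 115 and 120 CPM in KO, against 136, 135 and 130 CPM in control libraries. These groups did not overlap either, and the log2 fold change was -0.21 (SE 0.06, edgeR adjusted p = 0.0547; 5.3e-05 with the replicate block and 0.0471 on dropping KO replicate 3). With the block 2 genes of the list passed, 1 higher and 1 lower, where 33.9% of all tested genes passed.

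Of 12 intracellular brakes on SMAD signalling, 1 fell and 11 did not pass, where 6.42% of all tested genes were past the test and lower. The list median was 0.07. With the replicate block 5 passed, 2 higher and 3 lower, where 33.9% of all tested genes passed. SMURF2, a ubiquitin ligase that SMAD7 brings to receptors, measured 182, 176 and 185 CPM in KO, against 233, 230 and 226 CPM in control libraries. It fell by 0.34 on the log2 scale (SE 0.06, edgeR adjusted p = 0.0062). FKBP1A, which binds resting type I receptors, had a log2 fold change of 0.07 (SE 0.13), and the ubiquitin ligase NEDD4L -0.13 (SE 0.06). The edgeR adjusted p of NEDD4L was 0.229, 0.00218 with the replicate block and 0.00795 without both replicate 3 libraries.

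Of 4 tested other targets of SMAD1/5, 2 rose and 2 did not pass, with a list median of 0.23. Over all tested genes 3.28% were past the test and higher. RUNX2 measured 55.4, 56.0 and 56.0 CPM in KO, against 36.2, 36.1 and 38.7 CPM in control libraries, so the groups were separate and tight. Its log2 fold change was 0.59 (SE 0.06, edgeR adjusted p = 7.26e-04). ATOH8, a basic helix-loop-helix factor and BMP target in endothelium and liver, was scarce, with 1.45, 1.77 and 0.936 CPM in KO, against 0.378, 0.431 and 0.255 CPM in control libraries. Its log2 fold change was 1.97 (SE 0.38, edgeR adjusted p = 0.0137), with an adjusted p of 0.0596 on dropping control replicate 1, and of 0.0579 or 0.0681 on dropping KO replicate 1 or 2. HEY1, also a Notch target, had 2.64 ± 0.562 CPM in KO and 4.09 ± 0.364 CPM in control, a log2 fold change of -0.63 (SE 0.19; adjusted p = 0.0775 with edgeR; 0.00664 with the replicate block). MSX2 had a log2 fold change of -0.13 (SE 0.22).

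Of 8 genes that the TGF-beta branch induces through SMAD2 and SMAD3, 3 fell and 5 did not pass, with a list median of -0.05. LTBP2, a matrix protein, had 11.2 ± 0.343 CPM in KO and 17.8 ± 1.31 CPM in control, a log2 fold change of -0.67 (SE 0.10; adjusted p = 0.00335 with edgeR). KLF10, an early TGF-beta response factor (log2 fold change -0.42, SE 0.11), and CCN2, connective tissue growth factor (-0.30, SE 0.07), had edgeR adjusted p of 0.0438 and 0.0386; each lost the call on dropping 1 library. For KLF10 the adjusted p was then 0.144 or 0.156 (control replicate 1 or 2) and 0.0663 or 0.0993 (KO replicate 1 or 2). For CCN2 it was 0.162 or 0.168 (control replicate 1 or 2) and 0.133, 0.0885 or 0.0651 (KO replicate 1, 2 or 3). TGIF1, a SMAD corepressor, had a log2 fold change of 0.15 (SE 0.12). With the block, where 33.9% of all tested genes passed, 1 gene of this list was higher and 4 were lower.

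Of the partners and outputs of ID proteins, 2 genes passed, both of the output list. Of 5 tested basic helix-loop-helix partners 0 passed edgeR's test or DESeq2's, and none had an unadjusted p under 0.05. The E protein genes TCF3 (132 ± 6.60 CPM in KO and 134 ± 8.78 CPM in control) and TCF12 (52.5 ± 6.53 CPM in KO and 55.5 ± 7.56 CPM in control) were the most abundant. The 10 untested partners had at most 2 counts in any library. Of 3 tested genes reported as repressed through ID proteins, 2 rose and 1 did not pass, where 3.28% of all tested genes were past the test and higher. THBS1, the angiogenesis inhibitor thrombospondin-1, had 853 ± 23.6 CPM in KO and 402 ± 8.75 CPM in control (log2 fold change 1.08, SE 0.06, edgeR adjusted p = 3.34e-05). CDKN1A, the CDK inhibitor p21, had 76.8 ± 5.28 CPM in KO and 61.4 ± 3.71 CPM in control (log2 fold change 0.33, SE 0.07, edgeR adjusted p = 0.0279); its adjusted p was between 0.0627 and 0.101 on dropping control replicate 1, 2 or 3, or KO replicate 1 or 2. CDKN1C had a log2 fold change of -0.40 (SE 0.19).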

How the data were processed

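The authors deposited 1 table of unnormalized gene-level counts, as its whole-number values with unequal library sums show. The submitters' processing notes list STAR 2.7.9a, R 4.1.1, FastQC 0.11.9 and featureCounts, and hg38 as the build. Libraries were stranded per the labels' protocols; the annotation and the strand setting of the counting are not given in any source used here. Groups came from the treatment labels.

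Genes were kept by edgeR's filterByExpr (14704), scaled with TMM factors and compared with edgeR's quasi-likelihood test with robust estimation, group as the single term and Benjamini-Hochberg adjustment over all tested genes (threshold 0.05). SE is the log2 fold change over the root of F. Software was R 4.3.3, edgeR 4.0.16 and DESeq2 1.42.0. The procedure was run on simulated counts drawn independently for each library. Those counts lacked the shift of replicate 3 seen in both groups, so the run does not cover it. The genes and the 9 pathway lists were chosen with earlier results of these data known. Named genes were all genes of the set, up to 3 per direction past the test and the 2 most abundant others in each list, and the 3 nearest profiles of BMP4, ID1, ID3 and SMAD6. One gene that this rule names is not reported here. A count of 0 allows up to 3 counts, or 0.128 to 0.165 CPM by library; intervals cover counting error only. Positions are from GENCODE release 29 on GRCh38.

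Both groups carry replicate numbers 1 to 3. The labels do not say that the numbers pair the samples. Deviations from group means over 10032 genes correlated between same-numbered libraries at 0.55, 0.45 and 0.83. The main test had no term for the replicate number, and the number entered as a block in an alternative fit only. KO replicate 2 with control replicate 1 (0.59) and KO replicate 1 with control replicate 2 (0.58) correlated more than their same-numbered pairs, so the values set replicate 3 apart and do not tell replicates 1 and 2 from each other.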

Additional observations from a re-analysis of the deposited data

How the results depend on the processing

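The alternatives were DESeq2's size factors within edgeR, DESeq2's Wald test, no filter on low counts, the replicate block, leaving out each library and, added after the data were seen, leaving out both replicate 3 libraries. Of the set, 5 genes passed under each of the first 4 and without both replicate 3 libraries, and 3 to 5 with 1 library left out. BMP4, ID3 and ID4 passed in all 11, with log2 fold changes of 0.63 to 0.65, 1.09 to 1.32 and 0.60 to 0.74. These fits reuse the libraries known when the genes were chosen, so the calls are a description and no independent evidence. Over all genes 1427 passed, 4983 with the replicate block (2522 higher and 2461 lower, 50.6% and 49.4%, against 33.8% and 66.2% without it), 3754 without both replicate 3 libraries (46.1% higher) and 572 to 1741 with 1 library left out (23.5% to 44.6% higher). Of the pathway lists 8 passed, 18 with the replicate block, 14 without both replicate 3 libraries and 4 to 10 with 1 library left out. Among the named genes reported other than PMEPA1, the block changed no call beyond those given beside their values. Signs turned for genes near 0: BMPR1A had 0.00020 with DESeq2's size factors, 0.00022 with DESeq2's Wald test, 0.023 without both replicate 3 libraries and -0.054 to 0.056 with 1 library left out, and ACVR2B 0.042 without both replicate 3 libraries and -0.064 to 0.10 with 1 library left out. With 1 library left out the range was -0.055 to 0.0017 for SMAD3, -0.058 to 0.028 for TWSG1, -0.089 to 0.0083 for CRIM1, -0.045 to 0.18 for FKBP1A, -0.28 to 0.087 for MSX2, -0.064 to 0.046 for TCF3, -0.18 to 0.042 for TCF12 and -0.018 to 0.043 for ETV5. The causes were not tested. ID2 and the untested ligands had too few counts for the test, and 4 of those ligands had 0 counts in every library.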
